A study of Rattus norvegicus with 14 samples.

Results

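The genes described here are 10 genes whose proteins sit at the dense bodies and focal adhesions of smooth muscle cells, namely Vcl, Csrp1, Csrp2, Pdlim3, Pdlim7, Ldb3, Des, Synpo2, Zyx and Flna. They were chosen by symbol, though with earlier results of these data known, and all 10 had a row among the 17312 genes of the deposited tables. Polyadenylated RNA had been sequenced from rat aortic smooth muscle cells (RASMC), a commercial primary culture from Lonza grown in medium with serum, in 14 libraries of 5 groups. All 5 groups were first kept in serum-free medium for 24 h. The 0 h group (2 libraries) was not stimulated. The groups PDGF 2 h and PDGF 24 h (3 libraries each) received platelet-derived growth factor (PDGF), a mitogen of smooth muscle, at 925 ng/ml for 2 or 24 h, of an isoform that the labels do not name. The groups JQ1+PDGF 2 h and JQ1+PDGF 24 h (3 libraries each) received the same PDGF after a pretreatment of 3 h with 500 nM JQ1, a small molecule that competes with acetylated histones for the bromodomains of BET proteins. Unstimulated cells at 2 or 24 h and cells given JQ1 alone were not analysed here, so PDGF and time in culture enter the comparisons with 0 h together. The labels do not say whether libraries of a group came from separate cultures, so the p-values measure only the spread between these libraries, which may be technical. Titles end in a letter, one of A, B, C and D in groups that had no JQ1 and one of E, F, G and H in groups that had it, and an effect of what the letters mark and an effect of JQ1 cannot be told apart.

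Dense bodies are the sites inside a smooth muscle cell where thin filaments and intermediate filaments are anchored, as at the Z-discs of striated muscle. Their counterparts at the membrane, the dense plaques, are built like focal adhesions: integrins hold the matrix outside, and adaptor proteins such as vinculin and talin hold actin filaments inside. Both kinds of site carry contractile force, and many of their genes are known targets of serum response factor (SRF), which is brought to them by myocardin in contractile cells and by actin-regulated cofactors when actin polymerises. In vessel walls the loss of contractile gene expression under PDGF is known as phenotypic modulation, and adhesion genes have roles in both the contractile and the migratory state.

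The promoters of 5 of these genes are shown because the genes behaved differently: Vcl, Csrp1 and Csrp2 moved together, Pdlim7 did not follow them, and Ldb3 was the gene with the widest difference under JQ1. Windows run from 250 bases before to 50 bases after the annotated start, 5′ to 3′ on the strand of the gene, and were taken from RefSeq on build GRCr8, which is not the build of the deposited values. Capitals mark matches, on either strand, to the CArG box (the SRF site), TGANTCA (the AP-1 site), GGAATG (the core of the TEAD site), GGGCGG (the GC box) and TATAAA.
Vcl: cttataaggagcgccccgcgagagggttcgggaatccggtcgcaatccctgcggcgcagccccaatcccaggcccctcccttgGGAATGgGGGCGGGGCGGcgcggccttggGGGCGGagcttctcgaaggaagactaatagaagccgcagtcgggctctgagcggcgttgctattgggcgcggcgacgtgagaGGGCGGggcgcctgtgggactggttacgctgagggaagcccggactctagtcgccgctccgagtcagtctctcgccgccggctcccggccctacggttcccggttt
Csrp1: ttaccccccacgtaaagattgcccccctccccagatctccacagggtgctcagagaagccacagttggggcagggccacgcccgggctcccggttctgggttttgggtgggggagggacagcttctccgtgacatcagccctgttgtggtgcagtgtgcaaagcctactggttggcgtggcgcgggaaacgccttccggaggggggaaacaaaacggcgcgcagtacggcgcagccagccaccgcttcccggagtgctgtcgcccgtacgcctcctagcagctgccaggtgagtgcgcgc
Csrp2: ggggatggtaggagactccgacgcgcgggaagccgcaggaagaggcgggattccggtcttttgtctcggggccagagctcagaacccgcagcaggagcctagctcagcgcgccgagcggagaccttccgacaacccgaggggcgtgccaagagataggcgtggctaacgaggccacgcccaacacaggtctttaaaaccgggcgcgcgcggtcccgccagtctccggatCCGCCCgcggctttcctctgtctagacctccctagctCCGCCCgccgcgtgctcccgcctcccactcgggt
Pdlim7: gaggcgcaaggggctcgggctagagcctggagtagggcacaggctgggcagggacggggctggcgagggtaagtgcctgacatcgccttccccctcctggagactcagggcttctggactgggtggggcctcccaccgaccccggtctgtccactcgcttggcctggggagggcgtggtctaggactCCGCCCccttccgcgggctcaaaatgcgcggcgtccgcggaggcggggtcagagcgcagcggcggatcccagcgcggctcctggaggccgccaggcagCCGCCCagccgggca
Ldb3: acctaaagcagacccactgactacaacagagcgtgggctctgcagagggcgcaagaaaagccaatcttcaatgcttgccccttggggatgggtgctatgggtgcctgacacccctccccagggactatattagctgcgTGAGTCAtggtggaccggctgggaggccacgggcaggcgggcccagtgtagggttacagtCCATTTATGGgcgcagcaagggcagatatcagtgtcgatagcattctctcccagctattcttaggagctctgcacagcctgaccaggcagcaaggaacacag
The Vcl window lies at chr15:3404751-3405050 on the minus strand, that of Csrp1 at chr13:49709678-49709977 on the plus strand and that of Csrp2 at chr7:48235165-48235464 on the plus strand. The Pdlim7 window lies at chr17:9129558-9129857 on the plus strand and the Ldb3 window at chr16:9924630-9924929 on the minus strand. Ldb3 had the only CArG box within these windows, CCATTTATGG, which begins at position -52 relative to the start, and the only AP-1 match, TGAGTCA, which begins at -112. The Vcl window begins with letters that match the last 9 bases of a CArG box. The base before them lies outside the window, so a full match there could not be found. Vcl had 1 GGAATG and 4 GGGCGG matches, of which the first pair overlap by 1 base, Csrp2 and Pdlim7 had 2 GC boxes each, and Csrp1 had no match in its window. The table held windows for 9 of the 10 genes (Pdlim3 was not matched), 10 windows in all because Zyx has 2. Of these 10 windows, 1 held a CArG box, 1 TGANTCA, 3 GGAATG, 8 GGGCGG and 0 TATAAA, against 1.64%, 7.33%, 14.2%, 33.1% and 14.2% of the 33469 RefSeq windows. A match describes letters in the window and is not a bound site.

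Levels are given as normalised FPKM (fragments per kilobase of transcript scaled to sequencing depth, then rescaled by the authors), a scale per transcript length on which genes can be set side by side. Per the labels, the dose of ERCC spike-in RNA followed the RNA from a set number of cells. The library medians of the 30 spike-ins that reached 1 FPKM in all libraries ran from -0.42 to 0.37 (log2) in the unnormalised values and from -0.12 to 0.11 in the normalised values, so normalised FPKM are called the spike-in scale below. Differences are of log2(normalised FPKM + 1), with the standard error (SE) of a limma fit, and a gene rose or fell where its Benjamini-Hochberg adjusted p over 10133 genes was under 0.05. A second scale, unnormalised FPKM divided by library size factors (9980 genes), sets the typical gene near 0 and is called median-centred. The choice matters because on the spike-in scale the median of all genes moved by 0.01 from 0 h to PDGF 2 h, 0.41 from 0 h to PDGF 24 h, -0.29 with JQ1 at 2 h and -0.48 with JQ1 at 24 h. In these bulk samples, fewer cells than the set number and less RNA per cell cannot be told apart. Between 9901 and 11503 genes were above 0 per library, and Spearman's rho between libraries of a group was 0.945 to 0.989. Smooth muscle markers (8 of 8 with a row) summed to 10026 to 11505 unnormalised FPKM at 0 h and PDGF 2 h, and to 1265 to 1510 at PDGF 24 h. Over all libraries the markers of other cell types summed to 20.4 to 105 (8 endothelial, highest at PDGF 24 h, with Cdh5 and Emcn at 0 in every library), 6.72 to 53.1 (7 leukocyte, highest at PDGF 24 h, with Ptprc, Cd3e and Adgre1 at 0) and 2.77 to 57.6 (15 skeletal and cardiac, highest at 0 h, with Tnni2 and Myog at 0). Those of adventitial fibroblasts (6 with a row) had the highest sum of these, 6.10 to 130, and stood at 125 to 130 at 0 h, with Dpt at 0 in every library and Cd34 and Dcn at 0 in both 0 h libraries. Under 1 unnormalised FPKM in every library were 3 of the 6 fibroblast, 6 of the 8 endothelial and 5 of the 7 leukocyte markers. The same held for 8 of the 15 skeletal and cardiac markers, so each sum comes mainly from the other genes of its list.

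Levels differed widely between the genes. Flna, the filamin that crosslinks actin into networks, and Csrp1, a LIM protein of actin filaments, were the highest, with 781 ± 121 and 614 ± 56.0 normalised FPKM at 0 h (SD, n = 2). Vcl, Pdlim7 and Zyx lay between 176 and 293 in the 0 h libraries, Csrp2 between 30.2 and 42.8, and Ldb3 and Synpo2 between 5.52 and 7.78. Des and Pdlim3 were at or near the floor of detection, between 0.343 and 1.41. The plot of levels by library shows that the genes took different courses: Vcl, Csrp1 and Csrp2 rose at 2 h and then fell, Pdlim7 and Zyx rose at 2 h and had their highest group mean at JQ1+PDGF 2 h, and Flna fell at 24 h only. Ldb3 and Synpo2 were low, and with JQ1 Ldb3 fell at 2 h and 24 h whereas Synpo2 passed the test at 24 h only.

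**Figure D1:**
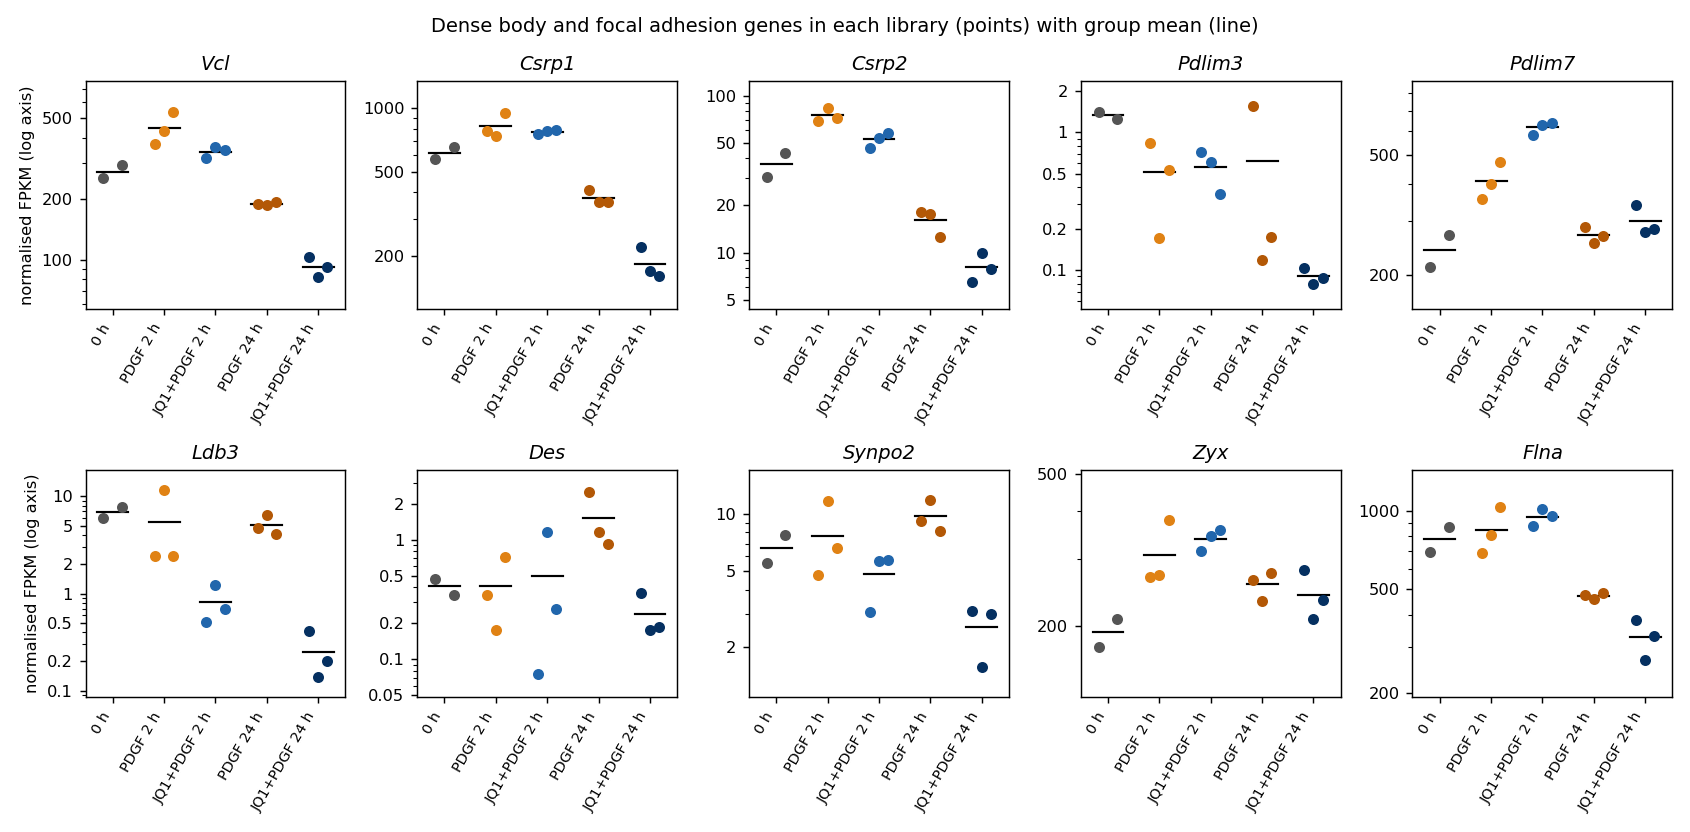
Normalised FPKM (vertical log axis, own range for each gene) of the 10 genes in the 0 h, PDGF 2 h, JQ1+PDGF 2 h, PDGF 24 h and JQ1+PDGF 24 h groups; each point is a library and each line a group mean. Vcl is highest at PDGF 2 h (373 to 537) and lowest at JQ1+PDGF 24 h (81.7 to 103), whereas Pdlim7 is highest at JQ1+PDGF 2 h (581 to 639).

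Vinculin (Vcl) links talin and alpha-catenin to actin and is the classical marker of focal adhesions and dense plaques. Its level was 253 and 293 normalised FPKM at 0 h, 373, 431 and 537 at PDGF 2 h, and 188, 186 and 193 at PDGF 24 h. With JQ1 it was 319, 359 and 350 at 2 h and 103, 81.7 and 92.3 at 24 h. No library of one group reached the range of another, and the order from low to high was JQ1+PDGF 24 h, PDGF 24 h, 0 h, JQ1+PDGF 2 h and PDGF 2 h. Vcl rose by 0.70 ± 0.14 (log2 difference ± SE, adjusted p = 0.00203, limma) from 0 h to PDGF 2 h and fell by 1.22 ± 0.13 from there to 24 h (adjusted p = 2.35e-06, limma), ending below 0 h by -0.52 ± 0.14 (adjusted p = 0.00895, limma). Without 0 h replicate 1 that last difference was -0.42 with an adjusted p of 0.0957 in limma.

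Csrp1 and Csrp2 encode cysteine-rich proteins of paired LIM domains, which bind alpha-actinin and zyxin on actin filaments and are known as cofactors of smooth muscle transcription. Csrp1 stood at 574 and 653 normalised FPKM at 0 h, 778, 736 and 946 at PDGF 2 h, 412, 362 and 360 at PDGF 24 h, 752, 784 and 789 at JQ1+PDGF 2 h, and 221, 170 and 161 at JQ1+PDGF 24 h. Csrp2 was lower in every library, with 30.2 and 42.8 at 0 h, 69.1, 83.9 and 72.3 at PDGF 2 h, 18.1, 17.7 and 12.6 at PDGF 24 h, 46.5, 53.7 and 58.0 at JQ1+PDGF 2 h, and 6.50, 9.94 and 7.90 at JQ1+PDGF 24 h. Both genes followed the course of Vcl, and only the 2 h groups of Csrp1 with and without JQ1 overlapped. From 0 h to PDGF 2 h Csrp2 rose by 1.04 ± 0.20 (adjusted p = 0.00114, limma) and Csrp1 by 0.41 ± 0.15 (adjusted p = 0.0451, limma). The call for Csrp1 was lost when any of 10 single libraries was left out (adjusted p from 0.0532 to 0.287 in limma), among them both 0 h libraries, PDGF 2 h replicates 0 and 2, and all 3 JQ1+PDGF 2 h libraries. The other libraries of which this held were PDGF 24 h replicates 1 and 2 and JQ1+PDGF 24 h replicate 1. From 0 h to PDGF 24 h both fell, Csrp1 by 0.70 ± 0.15 (adjusted p = 0.00158, limma) and Csrp2 by 1.13 ± 0.20 (adjusted p = 0.000416, limma). The fall of Csrp2 from 2 to 24 h, 2.17 ± 0.18 on the log2 scale, was the widest PDGF difference of the 10 genes on both scales.

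Filamin A (Flna) was the exception among the abundant genes that fell, since it did not rise first. Its level was 696 and 867 normalised FPKM at 0 h, 691, 809 and 1038 at PDGF 2 h, and 477, 460 and 482 at PDGF 24 h. With JQ1 it was 878, 1015 and 961 at 2 h and 382, 267 and 330 at 24 h. The 0 h range overlapped that of PDGF 2 h, and both lay above every 24 h library. The difference at 2 h was 0.10 ± 0.17 with a 95% interval from -0.27 to 0.47 (adjusted p = 0.702, limma), and that at 24 h was -0.71 ± 0.17 (adjusted p = 0.00421, limma). Without 0 h replicate 1 the latter was -0.56 (adjusted p = 0.0617, limma).

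Pdlim7 (enigma) is a PDZ-LIM adaptor of actin filaments, and Zyx encodes zyxin, a LIM protein that gathers at focal adhesions and stress fibres under tension. Pdlim7 was at 212 and 270 normalised FPKM at 0 h, 355, 400 and 473 at PDGF 2 h, 288, 255 and 269 at PDGF 24 h, 581, 628 and 639 at JQ1+PDGF 2 h, and 340, 277 and 284 at JQ1+PDGF 24 h. Zyx was at 176 and 209 at 0 h, 268, 272 and 380 at PDGF 2 h, 264, 232 and 275 at PDGF 24 h, 314, 344 and 358 at JQ1+PDGF 2 h, and 280, 208 and 234 at JQ1+PDGF 24 h. All PDGF 2 h libraries of both genes lay above both 0 h libraries, and the 24 h groups with and without JQ1 overlapped. Pdlim7 rose by 0.76 ± 0.14 at PDGF 2 h (adjusted p = 0.000935, limma) and Zyx by 0.66 ± 0.16 (adjusted p = 0.00687, limma). Without 0 h replicate 0 the rise of Zyx was 0.53 and its adjusted p 0.0969 in limma. At 24 h Zyx was still above 0 h by 0.42 ± 0.16 (adjusted p = 0.0488, limma), but this call was lost without any of 8 single libraries (adjusted p from 0.0552 to 0.318 in limma), and the median-centred difference was -0.04. These 8 were both 0 h libraries, all 3 JQ1+PDGF 2 h libraries, PDGF 24 h replicates 0 and 2 and JQ1+PDGF 24 h replicate 2. Pdlim7 at 24 h differed from 0 h by 0.18 ± 0.14 on the spike-in scale (adjusted p = 0.34, limma) and by -0.29 ± 0.07 on the median-centred scale (adjusted p = 0.00528, limma), so its direction depends on the scale.

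Ldb3 (also called ZASP or cypher) and Synpo2 (myopodin) are Z-disc proteins of striated muscle that also occur at the dense bodies of smooth muscle. Ldb3 was at 6.06 and 7.78 normalised FPKM at 0 h, 2.43, 11.6 and 2.42 at PDGF 2 h, and 4.74, 6.44 and 4.05 at PDGF 24 h. Synpo2 was at 5.52 and 7.76 at 0 h, 4.79, 11.6 and 6.60 at PDGF 2 h, and 9.15, 11.9 and 8.14 at PDGF 24 h. The spread at PDGF 2 h came from replicate 1, which stood above the other 2 libraries for both genes. For Ldb3 the unnormalised FPKM of that library, 8.37 against 2.69 and 2.28, stood apart too. Neither gene passed the test against 0 h, with Ldb3 differing by -0.57 ± 0.44 at 2 h (adjusted p = 0.349, limma) and -0.39 ± 0.44 at 24 h (adjusted p = 0.49, limma), and Synpo2 by 0.12 ± 0.33 and 0.49 ± 0.33 (adjusted p = 0.818 and 0.248, limma). Without PDGF 2 h replicate 1, Ldb3 was lower at 2 h by -1.20 (adjusted p = 0.00328, limma) and higher at 24 h than at 2 h by 0.81 (adjusted p = 0.0105, limma), and Synpo2 was higher at 24 h than at 2 h by 0.68 (adjusted p = 0.0488, limma). Low values, as a class, were moved up by the authors' normalisation in that library by a median of 0.90 (log2), against -0.02 for high values, and the part of this shift in the result was not tested.

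Des encodes desmin, the muscle intermediate filament protein that ties dense bodies together, and Pdlim3 encodes ALP, a PDZ-LIM partner of alpha-actinin. Unnormalised FPKM of Des did not exceed 1.09 in any library and were 0 in 1 library each of PDGF 2 h (replicate 1) and JQ1+PDGF 2 h (replicate 0). Its normalised values were 0.474 and 0.343 at 0 h, 0.346, 0.174 and 0.714 at PDGF 2 h and 2.48, 1.16 and 0.922 at PDGF 24 h. With JQ1 they were 0.0746, 1.17 and 0.264 at 2 h and 0.358, 0.175 and 0.187 at 24 h. Des rose from PDGF 2 h to 24 h by 0.81 ± 0.31 (adjusted p = 0.0366, limma), and leaving out PDGF 2 h replicate 0 or 1 or PDGF 24 h replicate 0 or 1 ended this call (adjusted p from 0.052 to 0.164 in limma). Des was tested only because 3 libraries reached 1 on the spike-in scale, namely PDGF 24 h replicates 0 and 1 and JQ1+PDGF 2 h replicate 1. The PDGF 24 h group thus helped Des pass the filter, so its calls in comparisons with that group are not independent of the filter. Des was not tested on the median-centred scale. Pdlim3 was above 1 unnormalised FPKM in both 0 h libraries (1.33 and 1.26) and in JQ1+PDGF 2 h replicate 0 (1.04), and was listed at 0 in 5 libraries: PDGF 2 h replicate 1, PDGF 24 h replicate 1 and all 3 of JQ1+PDGF 24 h. Against 0 h, Pdlim3 did not pass at PDGF 2 h (-0.64, adjusted p = 0.181, limma) or PDGF 24 h (-0.63, adjusted p = 0.154, limma). Without PDGF 24 h replicate 0 the 24 h difference was -1.02 (adjusted p = 0.0154, limma), and on the median-centred scale it was -0.89 (adjusted p = 0.0411, limma). Without that library Pdlim3 passed the filter only through the 0 h libraries, and on the median-centred scale partly through them. Both of these calls against 0 h are thus not independent of the filter. Vimentin (Vim), the intermediate filament protein of mesenchymal cells, stood at 2902 ± 441 normalised FPKM at 0 h (SD, n = 2), far above Des and Pdlim3.

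Counted together, 5 of the 10 genes rose and 0 fell from 0 h to PDGF 2 h (Vcl, Csrp1, Csrp2, Pdlim7 and Zyx), where 17.7% of all tested genes rose and 12.7% fell. The median difference of the 10 was 0.27 against 0.01 for all genes. From 0 h to PDGF 24 h, 1 rose (Zyx) and 4 fell (Vcl, Csrp1, Csrp2 and Flna), where 37.7% of all genes rose and 4.85% fell, with medians of -0.46 and 0.41. From PDGF 2 h to 24 h, 1 rose (Des, which passed the filter partly through PDGF 24 h libraries) and 5 fell (Vcl, Csrp1, Csrp2, Pdlim7 and Flna), where 44.5% rose and 11.8% fell. At 24 h the median of the 10 genes was thus below 0 where that of all genes was above it. On the median-centred scale, which could test 9 of the 10, the counts were 5 higher and 0 lower at 2 h (20.4% and 19.4% of all genes), 0 and 6, with Pdlim3 and Pdlim7 now among those lower, at 24 h against 0 h (14.8% and 13.4%), and 0 and 6 at 24 h against 2 h (26.6% and 25.8%). Pdlim3 passed the filter there partly through the 0 h libraries, so its call against 0 h is not independent of the filter. The count at 2 h was 3 without 0 h replicate 0, and the count at 24 h against 0 h was 2, both lower, without 0 h replicate 1.

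**Figure D2:**
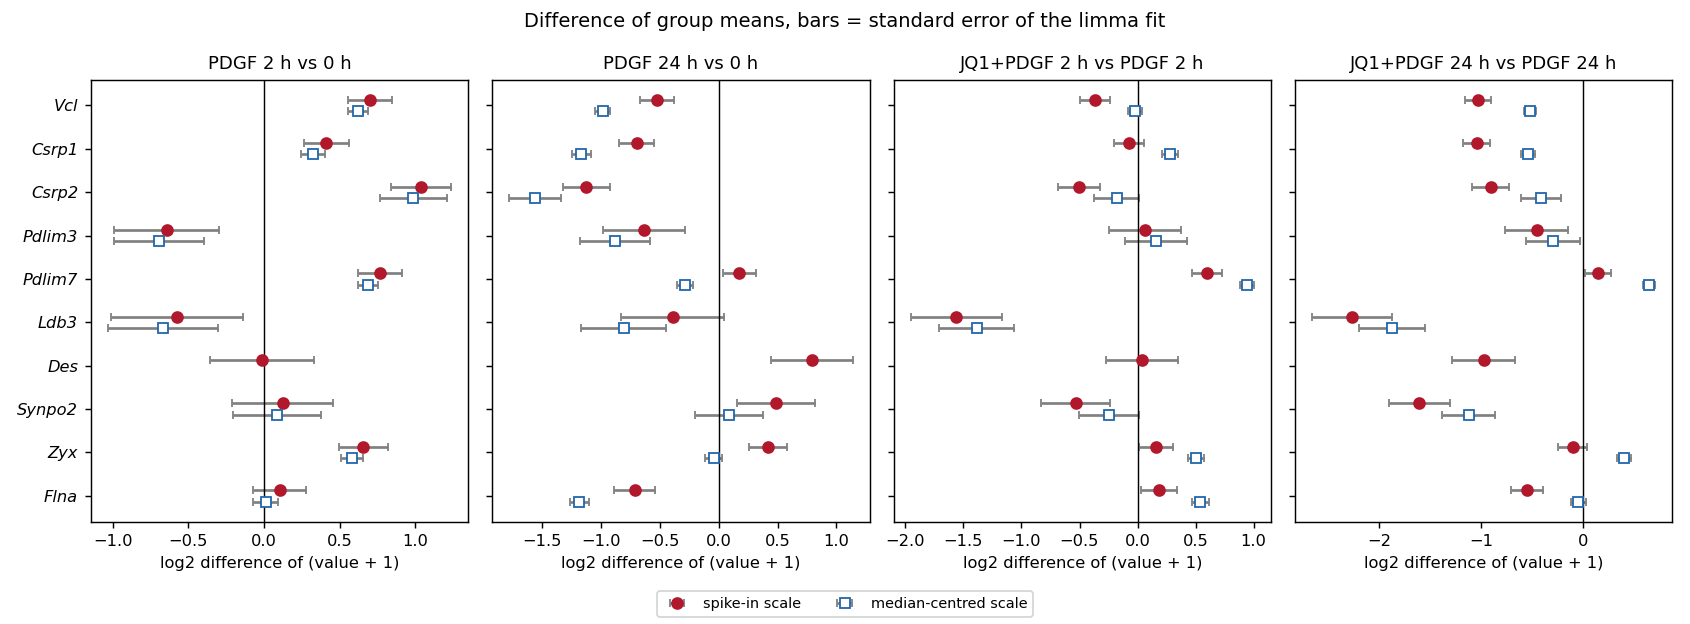
Log2 differences of (value + 1) between group means (horizontal axis) for each of the 10 genes in 4 comparisons, as filled circles for normalised FPKM and open squares for median-centred FPKM, with bars for the standard error of the limma fit; Des has no open square because it was not tested on that scale. Ldb3 lies farthest left in both JQ1 panels (-1.56 and -2.27), and Pdlim7 lies right of 0 at 2 h on both scales (0.60 and 0.94).

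With JQ1 at 2 h the calls among the 10 genes went in both directions, at shares near those of all tested genes. Against PDGF 2 h, 1 rose (Pdlim7) and 3 fell (Vcl, Csrp2 and Ldb3), where 7.24% of all tested genes rose and 34.0% fell, and the medians were -0.02 for the 10 genes and -0.29 for all genes. Pdlim7 was higher in each of the 3 JQ1+PDGF 2 h libraries than in any PDGF 2 h library, by 0.60 ± 0.13 (adjusted p = 0.0018, limma), and by 0.94 ± 0.06 on the median-centred scale (adjusted p = 1.48e-07, limma). Ldb3 was at 0.512, 1.23 and 0.701 normalised FPKM with JQ1 against 2.43, 11.6 and 2.42 without it. Every JQ1 library lay below every PDGF library, the difference was -1.56 ± 0.39 (adjusted p = 0.00497, limma), and the median-centred value was -1.39 (adjusted p = 0.00418, limma). Without PDGF 2 h replicate 1 the difference was -0.94 and still passed. Ldb3 fell by this test while Pdlim7, another PDZ-LIM gene, rose. Summed unnormalised FPKM of markers moved in this comparison too: those of smooth muscle were 16683 to 16999 with JQ1 against 10868 to 11505 without, those of skeletal and cardiac muscle, tissues that also express Ldb3, 18.3 to 22.8 against 36.6 to 39.0, and those of endothelium 21.2 to 22.8 against 42.5 to 55.2. By gene, 1 of the 8 smooth muscle markers rose and 4 fell on the spike-in scale. Median-centred, 3 rose and 3 fell, where 20.1% of all genes rose and 21.5% fell. The higher smooth muscle sum thus does not describe most of its markers. Leukocyte markers summed to 6.72 to 11.9 against 17.9 to 22.9 and adventitial fibroblast markers to 90.2 to 108 against 102 to 115. Their part in the result was not tested.

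The smaller falls at 2 h depended on the libraries and on the scale. Vcl fell by 0.37 ± 0.13 (adjusted p = 0.0334, limma) and Csrp2 by 0.50 ± 0.18 (adjusted p = 0.0346, limma), but the median-centred differences were -0.02 and -0.18 (adjusted p = 0.772 and 0.495, limma). The Vcl call was lost without PDGF 2 h replicate 1 or 2 or JQ1+PDGF 2 h replicate 0 or 2 (differences from -0.38 to -0.23), and the Csrp2 call without PDGF 2 h replicate 1 or 2 or JQ1+PDGF 2 h replicate 0 or 1 (from -0.53 to -0.42). Csrp1 differed by -0.07, with a 95% interval from -0.35 to 0.21, on the spike-in scale (adjusted p = 0.689, limma) and by 0.28 on the median-centred scale (adjusted p = 0.00743, limma). Zyx and Flna did not pass on the spike-in scale (0.16 ± 0.15 and 0.19 ± 0.16) and were higher by 0.50 and 0.54 on the median-centred scale. On that scale 4 of 9 genes were higher (Csrp1, Pdlim7, Zyx and Flna) and 1 lower (Ldb3), where 20.1% of all genes were higher and 21.5% lower. The spike-in count of 4 was 2 (Pdlim7 and Ldb3) without PDGF 2 h replicate 1 or 2 or JQ1+PDGF 2 h replicate 0. For Synpo2 the difference was -0.53 ± 0.30 (adjusted p = 0.164, limma), and it ranged from -0.22 without PDGF 2 h replicate 1 (adjusted p = 0.556, limma) to -0.79 without PDGF 2 h replicate 0 (adjusted p = 0.0497, limma).

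After 24 h with JQ1, 7 of the 10 genes were below PDGF 24 h and 0 above it, where 48.5% of all tested genes fell and 4.61% rose. These were Vcl, Csrp1, Csrp2, Ldb3, Des, Synpo2 and Flna, of which Des passed the filter partly through PDGF 24 h libraries. The median difference of the 10 was -0.94 against -0.48 for all genes. Ldb3 was at 0.415, 0.139 and 0.201 normalised FPKM with JQ1 against 4.74, 6.44 and 4.05 without, and fell by 2.27 ± 0.39 (adjusted p = 0.000171, limma). Synpo2 was at 3.11, 1.57 and 3.00 against 9.15, 11.9 and 8.14, and fell by 1.61 ± 0.30 (adjusted p = 0.000312, limma). For both genes every JQ1 library lay below every PDGF 24 h library, and on the median-centred scale the differences were -1.88 (adjusted p = 0.000365, limma) and -1.12 (adjusted p = 0.00305, limma). Csrp1 fell by 1.05 ± 0.13 (adjusted p = 7.83e-06, limma), Vcl by 1.03 ± 0.13 (adjusted p = 7.87e-06, limma) and Csrp2 by 0.91 ± 0.18 (adjusted p = 0.000537, limma). Their median-centred differences were -0.54, -0.52 and -0.41, of which only that of Csrp2 missed the threshold (adjusted p = 0.0988, limma). Flna fell by 0.55 ± 0.16 on the spike-in scale (adjusted p = 0.00768, limma), close to the median of all genes, and its median-centred difference was -0.05 (adjusted p = 0.613, limma). Without JQ1+PDGF 24 h replicate 1 its spike-in difference was -0.41 (adjusted p = 0.052, limma). The fall of Des, 0.98 ± 0.31 (adjusted p = 0.0146, limma), was lost without PDGF 24 h replicate 0 (-0.72, adjusted p = 0.0762, limma), the library in which low values were moved up by 0.94 (log2) at the median, the part of which was not tested.

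Pdlim7, Zyx and Pdlim3 (-0.46, adjusted p = 0.228, limma) did not pass the test with JQ1 at 24 h on the spike-in scale. Pdlim7 differed by 0.15 ± 0.13 (adjusted p = 0.357, limma) and rose by 0.65 ± 0.06 on the median-centred scale (adjusted p = 1.34e-06, limma). Zyx differed by -0.10 ± 0.15 (adjusted p = 0.564, limma) and rose by 0.40 ± 0.07 (adjusted p = 0.000241, limma), so the direction for Zyx depends on the scale. On the median-centred scale 2 of 9 genes were higher (Pdlim7 and Zyx) and 4 lower (Vcl, Csrp1, Ldb3 and Synpo2), where 23.1% of all genes were higher and 25.8% lower. Markers moved in the same comparison: the summed unnormalised FPKM of the 8 smooth muscle markers were 385 to 450 with JQ1 against 1265 to 1510 without, and those of 6 adventitial fibroblast markers 6.10 to 8.44 against 95.7 to 115, with Dpt at 0 in every library. Those of 15 skeletal and cardiac muscle markers, of tissues that also express Ldb3, Des and Synpo2, were 2.77 to 4.67 against 7.32 to 12.3, those of 8 endothelial markers 20.4 to 24.9 against 92.5 to 105, and those of 7 leukocyte markers 9.57 to 17.3 against 36.9 to 53.1. Only 2 of the 7 leukocyte markers were tested, and on the spike-in scale 1 rose and 1 fell, where 4.61% of all genes rose and 48.5% fell. Their part in the result was not tested.

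The difference between the JQ1 effects at 24 and 2 h was tested as an interaction. It passed the test below 0 for 3 of the 10 genes and above 0 for none of them, where 17.5% of all genes were lower and 4.82% higher. All 10 values were below 0, as was the median of all genes, -0.22, against -0.68 for the 10 genes. Csrp1 had the widest called value, -0.97 ± 0.19 (adjusted p = 0.00151, limma), followed by Flna with -0.74 ± 0.22 (adjusted p = 0.025, limma) and Vcl with -0.66 ± 0.18 (adjusted p = 0.0165, limma). Their JQ1 differences at 2 h were -0.07, 0.19 and -0.37, in the same order, and those at 24 h were -1.05, -0.55 and -1.03. The value for Vcl was -0.58 without JQ1+PDGF 24 h replicate 1 (adjusted p = 0.0505, limma), and the Flna call was lost without that library, PDGF 2 h replicate 0, JQ1+PDGF 2 h replicate 1 or PDGF 24 h replicate 2 (adjusted p from 0.0521 to 0.074 in limma). On the median-centred scale 4 of 9 were lower (Vcl, Csrp1, Flna and Pdlim7) and 0 higher, where 16.4% and 13.5% of all genes were. Pdlim7 passed there with -0.30 (adjusted p = 0.0174, limma) but not on the spike-in scale, with -0.45 ± 0.18 (adjusted p = 0.0887, limma), unless PDGF 2 h replicate 2 or JQ1+PDGF 24 h replicate 0 was left out (-0.56 and -0.54). Ldb3 and Synpo2 did not pass (-0.70 ± 0.55 and -1.07 ± 0.42, adjusted p = 0.397 and 0.0796, limma), but without PDGF 2 h replicate 1 they did (-1.33 and -1.38), and the count was then 5. Synpo2 also passed without JQ1+PDGF 2 h replicate 0 (-1.31, adjusted p = 0.0372, limma), and without JQ1+PDGF 24 h replicate 1 the count was 1.

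Set against 0 h, the JQ1 groups share those control libraries with the PDGF groups and are given as their own values. At JQ1+PDGF 2 h, 3 genes were above 0 h (Pdlim7 by 1.36 ± 0.14, Zyx by 0.82 ± 0.16 and Csrp2 by 0.53 ± 0.20) and 1 below it (Ldb3 by -2.14 ± 0.44), where 13.2% of all genes rose and 33.7% fell. The Csrp2 call was lost without 0 h replicate 0 (0.29, adjusted p = 0.38, limma) or JQ1+PDGF 2 h replicate 1 or 2, while Vcl passed without PDGF 2 h replicate 0 or 2 (0.33, adjusted p = 0.0478 and 0.0335, limma) and Csrp1 without PDGF 2 h replicate 2 or JQ1+PDGF 24 h replicate 0 (0.34, adjusted p = 0.0455 and 0.0336, limma). Median-centred, 6 of 9 were higher and 1 lower, where 25.6% and 27.1% of all genes were, with Vcl, Csrp1 and Flna added to the genes that rose. At JQ1+PDGF 24 h, 7 were below 0 h and 0 above it, where 23.4% of all genes fell and 17.6% rose. These were Ldb3 (-2.66), Csrp2 (-2.04), Csrp1 (-1.74), Vcl (-1.56), Flna (-1.26), Synpo2 (-1.12) and Pdlim3 (-1.09). Pdlim3 reached 1 normalised FPKM only in both 0 h libraries (1.41 and 1.24) and in PDGF 24 h replicate 0 (1.56). The 0 h group thus helped Pdlim3 pass the filter, so its call against 0 h is not independent of the filter. The Synpo2 call was lost without 0 h replicate 1 or JQ1+PDGF 24 h replicate 1, and that of Pdlim3 without either 0 h library. On the median-centred scale the same comparison gave 7 lower and 2 higher (Pdlim7 and Zyx, both by 0.36), where 24.8% and 25.1% of all genes were.

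The other genes of these structures were taken from 4 lists of 90 genes, of which 81 had a row and 69 were tested. From 0 h to PDGF 2 h 22 of the 69 rose and 14 fell, beside 17.7% and 12.7% of all genes. From 0 h to PDGF 24 h 25 rose and 13 fell, beside 37.7% and 4.85% of all genes. Both directions were thus seen within each comparison. Flnc, the filamin of muscle, rose by 3.67 ± 0.21 at 2 h (adjusted p = 2.46e-09, limma), from 47.3 ± 0.953 to 627 ± 169 normalised FPKM (SD, n = 2 and 3), and was at 71.0 ± 3.78 at 24 h (n = 3). Tes (testin), a LIM partner of zyxin at focal adhesions, rose by 3.00 ± 0.12 at 2 h (adjusted p = 3.62e-11, limma) and was still higher by 2.87 ± 0.12 at 24 h (adjusted p = 1.62e-10, limma). Fhl3, a LIM-only protein, rose by 2.14 at 2 h, and the integrin-linked adaptor Parvb by 2.41 at 24 h. Among list genes whose groups did not overlap, those that fell most at 24 h were Lims2 (-2.86), the PINCH partner of integrin-linked kinase, Synpo2l (-2.25), a relative of Synpo2, and Nexn (-1.38), the Z-disc protein nexilin. The kinase Ptk2b (-1.40) and the talin-binding Kank2 (-1.29) fell most at 2 h. The counts at 2 h were 21 or 22 in all without 1 of the 0 h libraries, and that at 24 h was 25 without 0 h replicate 0. Median-centred, 23 genes were higher and 17 lower at 2 h (20.4% and 19.4% of all genes), and 12 higher and 29 lower at 24 h (14.8% and 13.4%).

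With JQ1 the lists moved mostly down. At 2 h, 5 of the 69 genes rose and 34 fell, and at 24 h 1 rose (Nes, the intermediate filament protein nestin, by 0.66) and 54 fell, where 34.0% and 48.5% of all genes fell and 7.24% and 4.61% rose. Sorbs2, a vinculin-binding adaptor, was at 40.0 ± 5.78 normalised FPKM at PDGF 2 h and 4.82 ± 0.618 with JQ1 (SD, n = 3 each), a fall of 2.81 ± 0.14 (adjusted p = 6.32e-09, limma), and fell by 3.51 ± 0.14 at 24 h (adjusted p = 3.97e-11, limma). The kinase Src fell by 2.83 ± 0.18 at 2 h (adjusted p = 2.99e-08, limma) and Lims2 by 2.00 ± 0.20 (adjusted p = 3.43e-06, limma). At 24 h Fblim1 (migfilin), an adaptor that binds filamin, fell by 3.40 ± 0.14 and Nexn by 3.16 ± 0.13 (adjusted p = 3.51e-11 for both, limma). Of the 5 that rose at 2 h, those whose groups did not overlap were the adaptor Crkl (1.05), the small heat shock protein Cryab (0.68) and the sarcoglycan Sgcb (0.48). Median-centred, 18 rose and 24 fell at 2 h (20.1% and 21.5% of all genes), and 8 rose and 37 fell at 24 h (23.1% and 25.8%). The interaction passed the test below 0 for 25 of 69 genes and above it for 3 (17.5% and 4.82% of all genes), with Crip1 (-3.70), Flnc (-2.56) and Sgca (-2.48) the lowest. Flnc was higher with JQ1 at 2 h by 0.61 (adjusted p = 0.0172, limma) and fell by 1.95 at 24 h (adjusted p = 5.11e-07, limma).

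The 35 tested adaptors and kinases of focal adhesions had 28 that fell and 0 that rose with JQ1 at 24 h, the 12 other LIM and PDZ-LIM genes 10 and 0, the 9 actin crosslinkers and dense body genes 7 and 0, and the 13 genes of intermediate filaments and membrane anchors 9 and 1. Their median differences were -1.05, -0.69, -1.09 and -0.76, and over all genes 48.5% fell and the median was -0.48. Median-centred, the same lists had 19, 6, 6 and 6 genes lower and 4, 0, 0 and 4 higher, where 25.8% and 23.1% of all genes were. A list of 12 thin filament and myosin genes, the contractile machinery that these sites anchor, had 11 that fell from 0 h to PDGF 24 h and 0 that rose, with a median of -1.72, against 4 that fell and -0.46 for the 10 genes, and 4.85% and 0.41 for all genes. Median-centred, 12 of these 12 and 6 of 9 fell, where 13.4% of all genes did. The next values are on the spike-in scale, from 0 h to PDGF 24 h. Acta2 (smooth muscle actin) differed by -2.47 and Tagln by -2.33. Cnn1 (calponin) differed by -2.79 and Myh11 (smooth muscle myosin) by -1.14. Beside them, Vcl differed by -0.52, Csrp1 by -0.70 and Flna by -0.71. Whether the lists differ was not tested.

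**Figure D3:**
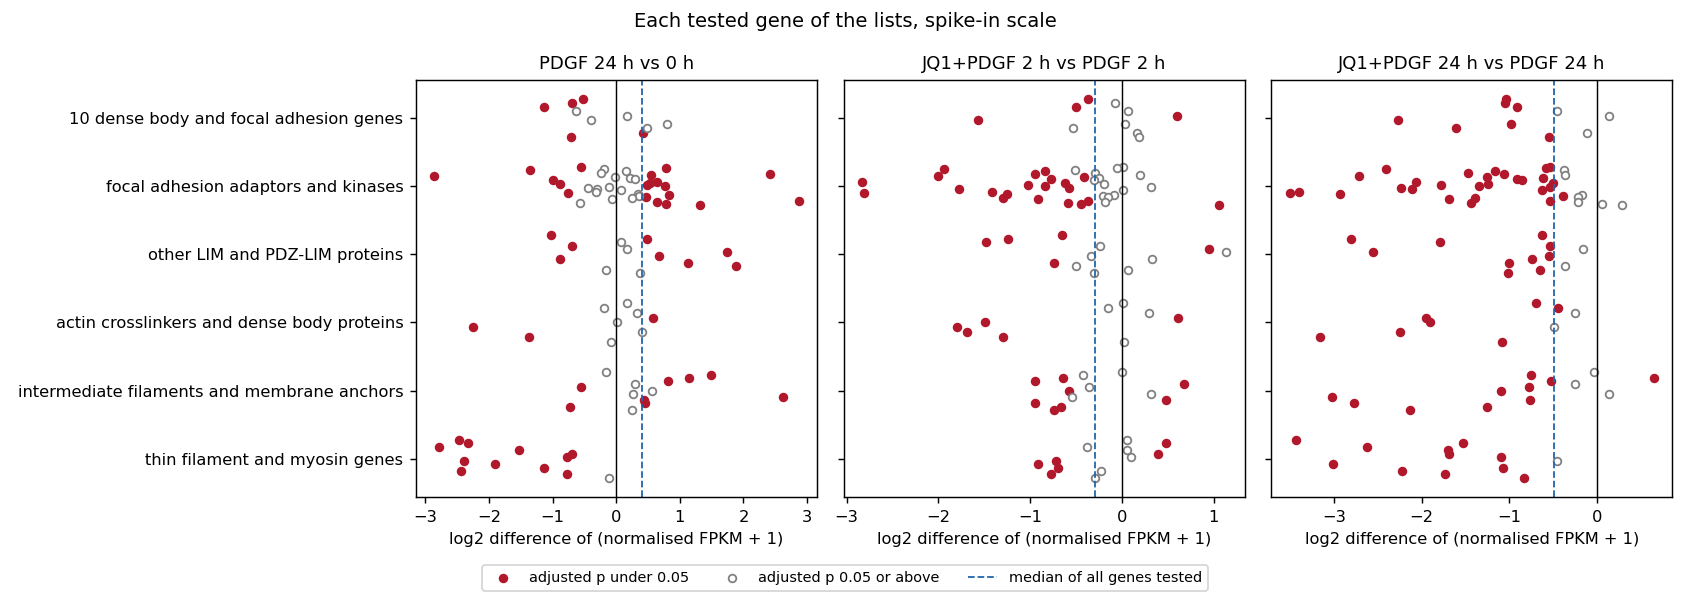
Log2 difference of (normalised FPKM + 1) (horizontal axis) of every tested gene of the 10 genes, of 4 lists of related genes and of the thin filament and myosin list (rows) in 3 comparisons; filled points passed an adjusted p of 0.05, open points did not, and the dashed line is the median of all genes tested. At PDGF 24 h 11 of 12 thin filament and myosin genes are filled and left of 0, whereas 4 of the 10 dense body and focal adhesion genes are.

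Across the 14 libraries 8 of the 10 genes, Flna included, had an r of 0.87 or more with at least 1 other of the 10, whereas the highest r of Des was 0.54 and that of Pdlim3 0.52. On log2(normalised FPKM + 1), Pearson's r was 0.98 between Vcl and Csrp1, 0.97 between Csrp1 and Flna, 0.96 between Vcl and Csrp2, 0.88 between Pdlim7 and Zyx and 0.87 between Ldb3 and Synpo2. The lowest of the 45 pairs was Pdlim7 with Ldb3, at -0.39. These values describe 14 libraries that share group, scaling and depth, and are given with no test. Of all tested genes, those most like Vcl were Csrp1, Il1r1 and Cnn1 (r of 0.98), those most like Csrp1 were Tpm2, Cnn1 and Myl12a (0.99), those most like Csrp2 were Gab1, Cnn1 and Igfbp2 (0.96 to 0.97), and those most like Flna were Col4a1, Fhl1 and Fstl1 (0.98 to 0.99). Cnn1, which encodes calponin, was among the 3 nearest of Vcl, Csrp1 and Csrp2. The genes most like Pdlim7 were of another kind, Ddx5, Ptbp1 and Tubb4b (0.98 to 0.99), and those most like Zyx were Clic4, Actg1 and Hnrnpu (0.94 to 0.97). For Ldb3 they were Cdk5rap2, Zfp641 and Cnksr1 (0.97), for Synpo2 Bcl9l, Col5a3 and Dock1 (0.94 to 0.95), for Des S100g, Nav3 and Pcdhgb7 (0.94 to 0.95), and for Pdlim3 Scara5, Pole2 and Eri2 (0.88 to 0.96).

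**Figure D4:**
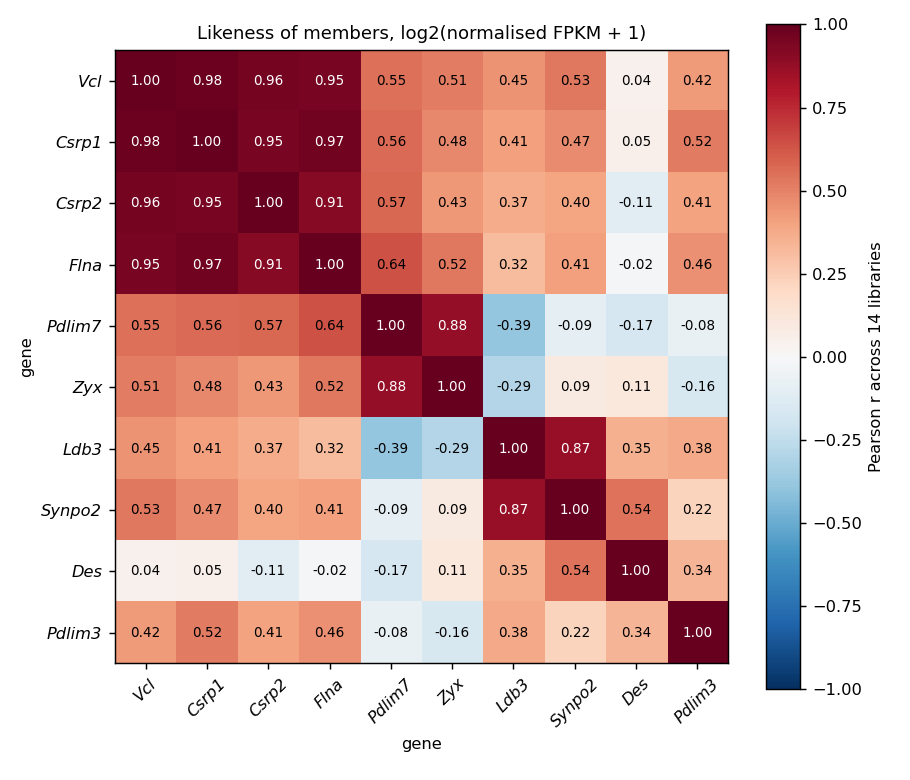
Pearson's r between the 10 genes (both axes) over 14 libraries of log2(normalised FPKM + 1), from -1 (blue) to 1 (red), with the value in each square. Vcl, Csrp1, Csrp2 and Flna form a block of 0.91 to 0.98, Pdlim7 and Zyx a pair at 0.88, and Ldb3 and Synpo2 a pair at 0.87.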

How the data were processed

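The authors deposited 2 tables of 17404 features (17312 genes and 92 spike-ins), 1 with unnormalised FPKM and 1 with normalised FPKM. HISAT, Cufflinks 2.0.0 and rn6 are named in the submitters' processing notes for these reads of 40 bases; the annotation and the method of normalisation are not given in the sources used here. Columns match a group but end in digits where titles have letters, so each library goes by its group and the digit of its column, and 0 columns lacked a group. FPKM are not counts and depth is unknown, so values carry no counting interval and a 0 may be a failed estimate. Genes of at least 1 normalised FPKM in at least 2 libraries were tested on log2(normalised FPKM + 1) in 1 limma model (limma 3.58.1, R 4.3.3) over 5 groups, with a mean trend and 9 residual degrees of freedom. The code was tested on simulated data. The 10 genes and all lists were chosen with earlier results of these data known. Named beside them were, per comparison, up to 3 list genes with the highest and 3 with the lowest called differences whose ranges do not overlap (some are not printed), 4 contractile genes, the 3 genes most like each of the 10, and markers. Vim was named after its values were seen. No list test was run. List genes without a row in the tables were not analysed here.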

Additional observations from a re-analysis of the deposited data

Results flagged for a closer look

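For 3 genes the JQ1 effect differed between 24 h and 2 h by the interaction test of limma. The value (24 h effect minus 2 h effect, log2) was -0.66 for Vcl (SE 0.18, adjusted p = 0.0165, limma), -0.97 for Csrp1 (SE 0.19, adjusted p = 0.00151, limma) and -0.74 for Flna (SE 0.22, adjusted p = 0.025, limma). On the median-centred scale the values were -0.50, -0.82 and -0.59. Whether the letters in the sample titles or the time in culture had a part was not tested.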

How the results depend on the processing

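Of 1584 values of the 10 genes recomputed under alternatives, 1443 kept their direction and their side of the threshold. With the same sign, 73 lost a call and 35 gained one. A further 29 changed sign with no call before or after, and 4 changed sign with a call before or after the change. Those 4 were on the median-centred scale: Csrp1 with JQ1 at 2 h (0.28), Pdlim7 at PDGF 24 h against 0 h (-0.29), Zyx in the same comparison (-0.042) and Zyx with JQ1 at 24 h (0.40). The number of the 10 genes called with JQ1 at 2 h was 2 in place of 4 with no filter on low values, with no mean trend, or without both libraries whose low values were moved up, and for JQ1+PDGF 2 h against 0 h it was 7 in place of 4 on the median-centred scale. Leaving out 1 library at a time gave 3 to 6 genes called at PDGF 2 h against 0 h, 2 to 5 at PDGF 24 h against 0 h, 2 to 5 with JQ1 at 2 h and 1 to 5 for the interaction. It gave 21 to 36 list genes called at PDGF 2 h and 25 to 42 at PDGF 24 h, both against 0 h. The cause of these changes was not tested, except that leaving out a 0 h library leaves 1 control, which the fit takes to vary like the other groups. By setting, the values that kept direction and call were 51 of 72 on the median-centred scale, 63 of 80 without both libraries whose low values were moved up, 73 of 80 with no filter, 74 of 80 with no mean trend, 75 of 80 with a pseudocount of 0.1 and 67 of 72 with only the groups compared. Genes near 0 such as Des and Pdlim3 are limited by depth, which is unknown. No paired analysis was possible because the titles number the samples with letters and the columns with digits; the digits recur in every group, but nothing in the labels says what they stand for or ties them to the letters.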
